A study of Homo sapiens with 2 samples.

Results

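The 10 genes followed here are known to respond to low oxygen: *CA9*, *CA12*, *EGLN1*, *EGLN3*, *ANGPTL4*, *NDRG1*, *VEGFA*, *ADM*, *BNIP3* and *ANKRD37*. They were chosen by name as hypoxia-responsive genes outside glycolysis, and all 10 were among the 17249 rows of the deposited count table. The counts come from RNA sequencing of 2 poly(A)-selected libraries. One was labelled as DU145 cells given 200 pmol of small interfering RNA against the long noncoding RNA P53RRA, with a change of medium at 4 h and 48 h of culture after it. The other was labelled only as DU145 cells and is the control, with a data column that bears the name of a negative-control RNA. DU145 is a human prostate cancer line first grown from a brain metastasis. Both libraries were labelled with this line and no drug or low-oxygen treatment is named for either.

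The hypoxia-inducible factors (HIFs) are transcription factors made of an oxygen-sensitive alpha subunit and a stable partner, ARNT. When oxygen is plentiful, prolyl hydroxylases encoded by the *EGLN* genes mark the alpha subunit, and the VHL ubiquitin ligase then has it destroyed. When oxygen is scarce the alpha subunit persists and switches on genes for acid handling, blood vessel growth, lipid supply and mitochondrial turnover. The control is mostly of the protein, so the RNA of *HIF1A* is not a readout of HIF activity.

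The core of the DNA element that HIFs bind is written ACGTG or GCGTG, and the stretches around ACGTG are shown first because HIF is known to act through such elements. RefSeq promoter windows (GRCh38.p14, 250 bases before to 50 after the gene start) were found for 8 of the 10 genes. The sequences below run 5′ to 3′ on the strand of the gene, with every match to either form, on either strand, in capitals. CACGT and CACGC are the same cores read on the opposite strand, and CACGTG, the E-box letters, holds ACGTG on both strands.
CA9, chr9:35673898-35673927, plus strand: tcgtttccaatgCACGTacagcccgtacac
EGLN1, chr1:231422283-231422312, minus strand: gggccgtggtgtACGTGcagagcgcgcaga
ANGPTL4, chr19:8363909-8363938, plus strand: ggaaagaagagtCACGTctcccacggttcg
BNIP3, chr10:131982040-131982069, minus strand: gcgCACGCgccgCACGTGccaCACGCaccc
ANKRD37, chr4:185396676-185396705, plus strand: ctcCACGTGccagtgtttgtgtACGTGcgg

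The *EGLN3* window had no match to either form. Its part outside annotated exons is shown as the counterpart of the *CA9* site, since these were the genes with the largest increases.
EGLN3, chr14:33951082-33951324, minus strand: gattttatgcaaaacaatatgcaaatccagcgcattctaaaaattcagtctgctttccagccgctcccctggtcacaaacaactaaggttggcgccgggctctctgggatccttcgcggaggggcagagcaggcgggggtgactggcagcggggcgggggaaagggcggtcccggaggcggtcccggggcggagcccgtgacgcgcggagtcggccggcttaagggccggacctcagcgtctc

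The 8 windows differed in how many cores they held and where. *CA9* had a single core, which began 18 bases before the start, and *EGLN1* a single one 13 bases before it. *BNIP3* had 6 matches between 143 and 104 bases before the start, and *ANKRD37* had 3 between 162 and 143 bases before it. In each of these 2 genes, 2 of the matches were the strands of 1 CACGTG. Both cores contain CG, which occurred 48 times in the *BNIP3* window, 42 in that of *EGLN1* and 7 in that of *CA9*. *CA12* and *ADM* held only the GCGTG form, with 2 matches and 1 match. ACGTG was found in 5 of the 8 windows, against 21.4% of all 35116 windows and 27.7% of the 7205 windows of measured genes with 1 window each. GCGTG was found in 3 of the 8, against 36.5% and 52% of the same 2 sets, so its share was below that of measured genes. Either form was found in 7 of the 8, against 48.4% and 64.6% of the same 2 sets of windows. The number of matches did not order the genes by their difference between the libraries: *EGLN3*, with none, was far higher in the si-P53RRA library, and *BNIP3*, with the most, was nearly level. Only these windows were searched, so cores elsewhere in or near a gene were not counted. Whether HIF elements bear on the differences was not tested.

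**Figure D1:**
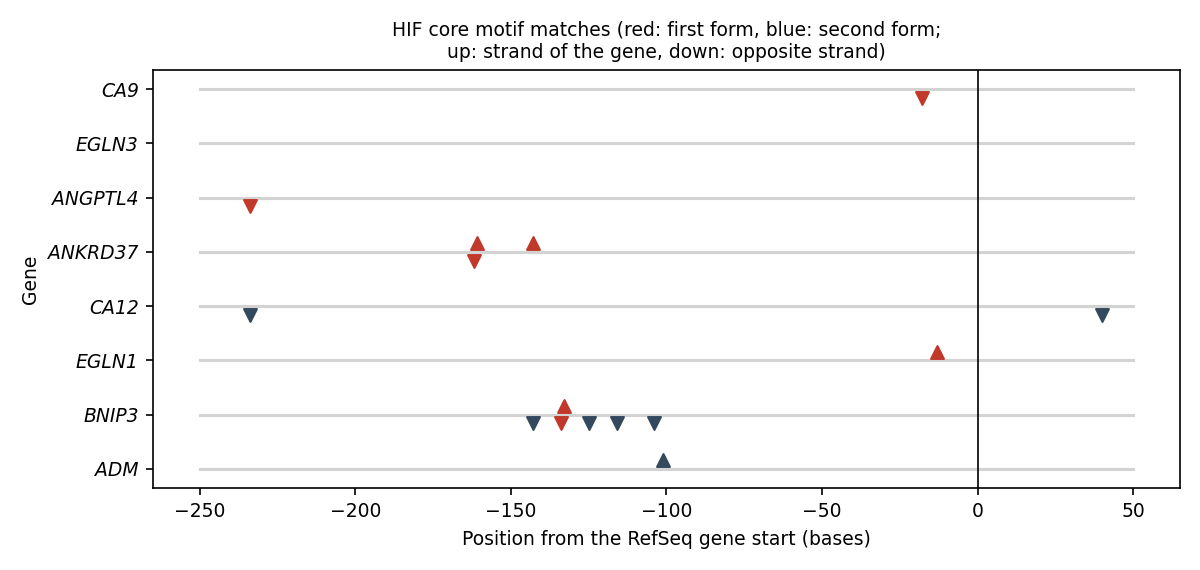
Positions of HIF core motif matches in the RefSeq promoter windows of 8 genes, as bases from the gene start (x axis), with genes ordered from the largest increase at the top to the largest decrease at the bottom (y axis). Red marks the ACGTG form and blue the GCGTG form; triangles pointing up are on the strand of the gene and those pointing down on the opposite strand. The windows of *CA9* and *EGLN1* have a match just before the start, *BNIP3* has 6 and *EGLN3* has none.

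The libraries held 11942362 counts (si-P53RRA) and 16030207 counts (control), and each group had 1 library, so no test between conditions was possible and no difference has a replicate check. The intervals in parentheses are exact 95% intervals for counting error only. *LINC00472*, the gene of P53RRA, had 6 counts in the library labelled si-P53RRA and 105 in the library labelled control. Cell type markers differed widely, although both libraries carry the label of 1 line. The 12 epithelial markers in the table summed to 2045 CPM (counts scaled to 1000000 per library) in the si-P53RRA library and 746 CPM in the control library. Most of the control sum came from *KRT18*, at 350 CPM, and *CTNNA1*, at 348 CPM. *KRT18* was at 710 CPM in the si-P53RRA library. *KRT19* had 7052 counts in the si-P53RRA library and 8 in the control library, and *CLDN4* had 4737 and 37 in the same order. Of 10 measured epithelial markers, 7 (70%) were higher by 2-fold or more and 1 (10%) was lower. Across all genes that reached 1 CPM, 19.7% were higher by this size and 23.2% lower. The catenin gene *CTNNA1* was at 0 in the si-P53RRA library, with 5835 counts in the control library, while *EPCAM* had 50 counts in the si-P53RRA library and 0 in the control library. E-cadherin, *CDH1*, was near 0 in both, at 7 counts in the si-P53RRA library and 2 in the control library. The 12 fibroblast markers summed to 1569 CPM in the si-P53RRA library and 14180 CPM in the control library. Of these, 11 (91.7%) were at least 2-fold lower, with *THY1*, *MMP2*, *DCN* and *FAP* at 0 in the si-P53RRA library. The other, *VIM*, made up 1291 CPM of the si-P53RRA sum and 2082 CPM of the control sum. Endothelial markers summed to 24.1 and 2.38 CPM and leukocyte markers to 79.7 and 40.6 CPM in the si-P53RRA and control libraries. Of the leukocyte sums, *CD68* alone made up 77.9 and 39.7 CPM. In the same order of libraries, *PTPRC* had 0 and 2 counts, *CD14* 4 and 12, and *LYZ* 16 and 1. An effect of the small interfering RNA and a difference between the cells in these libraries cannot be told apart, and in bulk RNA fewer cells of a type and less RNA per cell cannot be told apart either.

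Among the 10 genes, 5 were at least 2-fold higher in the si-P53RRA library (*CA9*, *EGLN3*, *ANGPTL4*, *NDRG1* and *ANKRD37*), 2 were at least 2-fold lower (*VEGFA* and *ADM*) and 3 were between (*CA12*, *EGLN1* and *BNIP3*). The differences are on the log2(CPM + 0.5) scale, si-P53RRA minus control. Across all 13532 genes that reached 1 CPM, 19.7% were higher by this size, 23.2% were lower and 42.9% were apart in either direction. All 10 genes passed this filter on low values. The median log2 change of the 10 was 1.14, beside −0.06 over all measured genes.

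**Figure D2:**
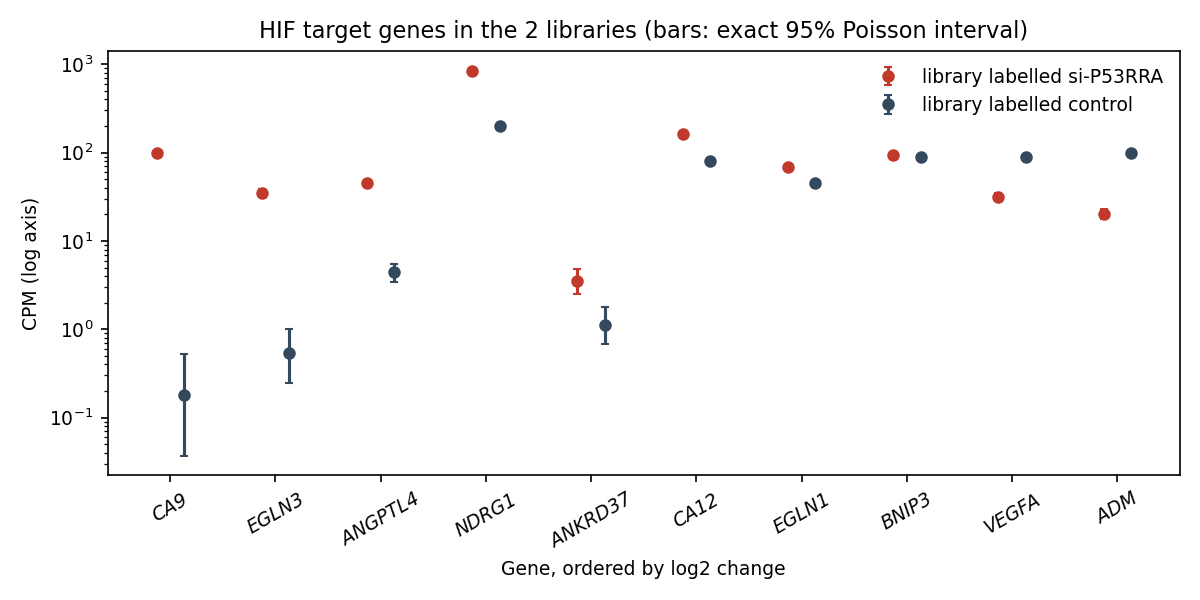
CPM of each of the 10 genes (y axis, log scale) in the library labelled si-P53RRA (red, left of each pair) and the library labelled control (blue, right), with genes ordered by log2 change along the x axis and bars for exact 95% Poisson intervals. *CA9* and *EGLN3* lie below 1 CPM in the control library only, *BNIP3* is level, and *VEGFA* and *ADM* are lower in the si-P53RRA library.

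The carbonic anhydrases of the cell surface turn carbon dioxide into bicarbonate and a proton, and *CA9* is among the genes most widely used as a marker of hypoxia in tumours. *CA9* had 1129 counts (1064 to 1197) in the si-P53RRA library and 3 counts (0.619 to 8.77) in the control library. These are 99.0 CPM in the si-P53RRA library and 0.179 CPM in the control library, a 554-fold higher level (189 to 2688), and the log2 change was 7.20. The gene was thus well measured in the si-P53RRA library and at the edge of detection in the control library. Of the 13532 measured genes, 36, *CA9* included, had an increase at least as large. The exons of *CA9* overlap those of *ARHGEF39* on the opposite strand, and the sources used here do not say whether strand was kept; *ARHGEF39* had 141 and 149 counts in the si-P53RRA and control libraries.

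*CA12*, the second surface carbonic anhydrase, had 1836 counts (161 CPM) in the si-P53RRA library and 1362 counts (81.2 CPM) in the control library. It was 1.98-fold higher (1.85 to 2.13) with a log2 change of 0.98, just short of 2-fold. Corrected for the GC content and length of transcripts, the log2 change was 1.05, which would count as higher. *CA12* was thus plentiful in both libraries, and *CA9* in the si-P53RRA library only. *CA9* took 38.1% (36.3 to 39.9) of the counts of the pair in the si-P53RRA library and 0.220% (0.045 to 0.641) in the control library. Of the 15 carbonic anhydrase genes listed, 7 were measured, of which 2 (28.6%) were higher and 3 (42.9%) lower. Over all measured genes these shares were 19.7% and 23.2%. The mitochondrial *CA5B* was 2.54-fold higher (1.90 to 3.43) and *CA13* was 4.64-fold lower (2.45 to 9.68). *CA3*, at 0 counts in the si-P53RRA library against 41 in the control library, was at least 7.22-fold lower. For a library at 0, such a value is the limit of the exact interval nearer to no difference.

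Genes that move acid and bicarbonate across membranes were read beside the carbonic anhydrases. Of 9 such genes, 3 (33.3%) were higher by 2-fold or more and 2 (22.2%) were lower, beside 19.7% and 23.2% of all measured genes. For the 9, the median log2 change was 0.50. The lactate transporter *SLC16A1* had a log2 change of 1.58, and *BSG*, the chaperone that brings lactate transporters to the surface, was 2.22-fold higher (2.17 to 2.28). The bicarbonate cotransporter *SLC4A4* was at 0 counts in the si-P53RRA library against 41 in the control library, at least 7.22-fold lower. *ATP6V0A1*, a subunit of the proton pump of lysosomes, kept 1 count in the si-P53RRA library against 908 in the control library.

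The prolyl hydroxylases EGLN1 and EGLN3 are both parts of the oxygen sensor and targets of HIF, so they belong to a feedback loop. *EGLN3* had 402 counts (364 to 443) in the si-P53RRA library and 9 counts (4.12 to 17.1) in the control library. Its level was 35.2 CPM in the si-P53RRA library and 0.536 CPM in the control library, 65.7-fold higher (34.3 to 145), with a log2 change of 5.11. *EGLN1* had 785 counts (68.8 CPM) in the si-P53RRA library and 767 counts (45.7 CPM) in the control library, 1.51-fold higher (1.36 to 1.67). *EGLN3* made up 33.9% (31.2 to 36.6) of the counts of *EGLN3* and *EGLN1* in the si-P53RRA library and 1.16% (0.532 to 2.19) in the control library. The ratio of *EGLN3* to *EGLN1* was 43.6-fold higher (22.5 to 96.7) in the si-P53RRA library, a comparison that no scaling of the libraries can move. The correction for GC content and length does move it, with log2 changes of 5.03 for *EGLN3* and 0.81 for *EGLN1*, beside 5.11 and 0.58 without it. *EGLN2*, the third member of the family and not known as a HIF target, had 21 counts in the si-P53RRA library and 55 in the control library, but it shares exons with the read-through gene *RAB4B-EGLN2* and its counts are uncertain.

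The machinery around these hydroxylases had members in both directions. Of 17 measured genes for HIF subunits, hydroxylases, the VHL ligase and coactivators, 2 (11.8%) were at least 2-fold higher and 4 (23.5%) lower. Over all measured genes 19.7% were higher and 23.2% lower, and the median log2 change of the 17 was −0.09. *HIF1A* was 1.10-fold lower (1.03 to 1.17), at 124 CPM in the si-P53RRA library and 136 CPM in the control library, but its log2 change of −0.13 became 0.47 with the correction for GC content and length, so its direction is not fixed. Its partner *ARNT* had 45.0 CPM in the si-P53RRA library and 48.0 CPM in the control library. *EPAS1*, the alpha subunit of the second HIF, was 2.76-fold lower (2.51 to 3.03), at 49.1 CPM in the si-P53RRA library against 135 CPM in the control library. *HIF1A* therefore took 71.6% (69.6 to 73.6) of the counts of both alpha subunits in the si-P53RRA library and 50.1% (48.6 to 51.6) in the control library. *VHL* was 1.49-fold higher (1.37 to 1.63) and *HIF1AN*, the asparagine hydroxylase that blocks coactivator binding, 1.34-fold lower (1.22 to 1.48). *CUL2*, the scaffold of the VHL ligase, was 3.91-fold higher (3.62 to 4.22), and *SIAH2*, a ubiquitin ligase that targets prolyl hydroxylases, 2.19-fold higher (1.99 to 2.41). *CITED2*, a HIF target that competes with HIF for its coactivators, was 8.50-fold lower (7.70 to 9.40) and the coactivator *CREBBP* 2.38-fold lower (2.20 to 2.57). *ARNT2*, at 0 counts in the si-P53RRA library against 71 in the control library, was at least 12.7-fold lower.

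The secreted factors among the 10 genes went in opposite directions. *ANGPTL4*, which inhibits lipoprotein lipase and is also a target of the lipid-sensing PPAR receptors, had 514 counts (471 to 560) in the si-P53RRA library and 74 counts (58.1 to 92.9) in the control library. It was 10.2-fold higher (7.99 to 13.2), at 45.1 CPM in the si-P53RRA library and 4.41 CPM in the control library. The log2 change of 3.21 became 2.65 with the correction for GC content and length. The exons of *ANGPTL4* overlap those of *RAB11B-AS1* on the opposite strand, which had 16 and 12 counts in the si-P53RRA and control libraries. *VEGFA*, the main growth factor for blood vessels, had 356 counts (320 to 395) in the si-P53RRA library and 1499 counts (1424 to 1577) in the control library. It was 2.86-fold lower (2.55 to 3.22), at 31.2 CPM in the si-P53RRA library and 89.3 CPM in the control library. *ADM*, whose product adrenomedullin widens vessels, had 232 counts (203 to 264) in the si-P53RRA library and 1649 counts (1570 to 1731) in the control library. These are 20.3 CPM in the si-P53RRA library and 98.3 CPM in the control library, a 4.83-fold lower level (4.21 to 5.57). The highest *VEGFA* and *ADM* were thus in the library with hardly any *CA9* and *EGLN3*.

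Relatives and receptors of these factors were given from lists chosen by family. Among 7 measured genes of the VEGF axis, 2 (28.6%) were higher and 2 (28.6%) lower, and the median log2 change was −0.87. Of all measured genes, 19.7% were higher and 23.2% lower. *VEGFB* and *VEGFC* had log2 changes of −0.87 and −0.05, so the share of *VEGFA* in the counts of *VEGFA* and *VEGFC* was 53.2% (49.4 to 57.0) in the si-P53RRA library and 75.9% (73.9 to 77.8) in the control library. The co-receptor *NRP1* was 2.93-fold higher (2.82 to 3.04) and *NRP2* 6.36-fold lower (5.23 to 7.81). The receptor *KDR* had 61 counts in the si-P53RRA library against 0 in the control library, at least 23.6-fold higher. *KDR* is also an endothelial marker, and 3 of 4 measured endothelial markers, *KDR* included, were at least 2-fold higher. *PECAM1* was 14.9-fold higher (7.75 to 31.9) and *ESAM* 33.2-fold higher (13.8 to 104). *TEK* was at 0 counts in the si-P53RRA library and 17 in the control library, and *VWF*, which did not pass the filter, was at 0 in the si-P53RRA library and 8 in the control library. The part of endothelial cells in the *KDR* value was not tested. In the adrenomedullin axis, *ADM2* was 18.1-fold lower (8.15 to 50.1), at 6 counts in the si-P53RRA library against 160 in the control library. The receptor partner *RAMP1*, which with the calcitonin receptor-like receptor forms the receptor for CGRP, was 46.7-fold higher (37.4 to 59.1), and its log2 change of 5.41 became 4.32 with the correction for GC content and length. The receptor itself, *CALCRL*, was near 0 with 2 counts in the si-P53RRA library and 15 in the control library. Of the angiopoietin-like genes only *ANGPTL2* was measured beside *ANGPTL4*, and it was 34.1-fold lower (19.3 to 66.3), so that *ANGPTL4* took 97.7% (96.0 to 98.8) of the counts of the pair in the si-P53RRA library and 11.0% (8.71 to 13.6) in the control library. *ANGPTL2* is known from stromal cells, and 11 of the 12 fibroblast markers were lower too. The 12 summed to 1569 CPM in the si-P53RRA library and 14180 CPM in the control library, of which *VIM* was 1291 and 2082 CPM. The part of stromal cells in these values was not tested.

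**Figure D3:**
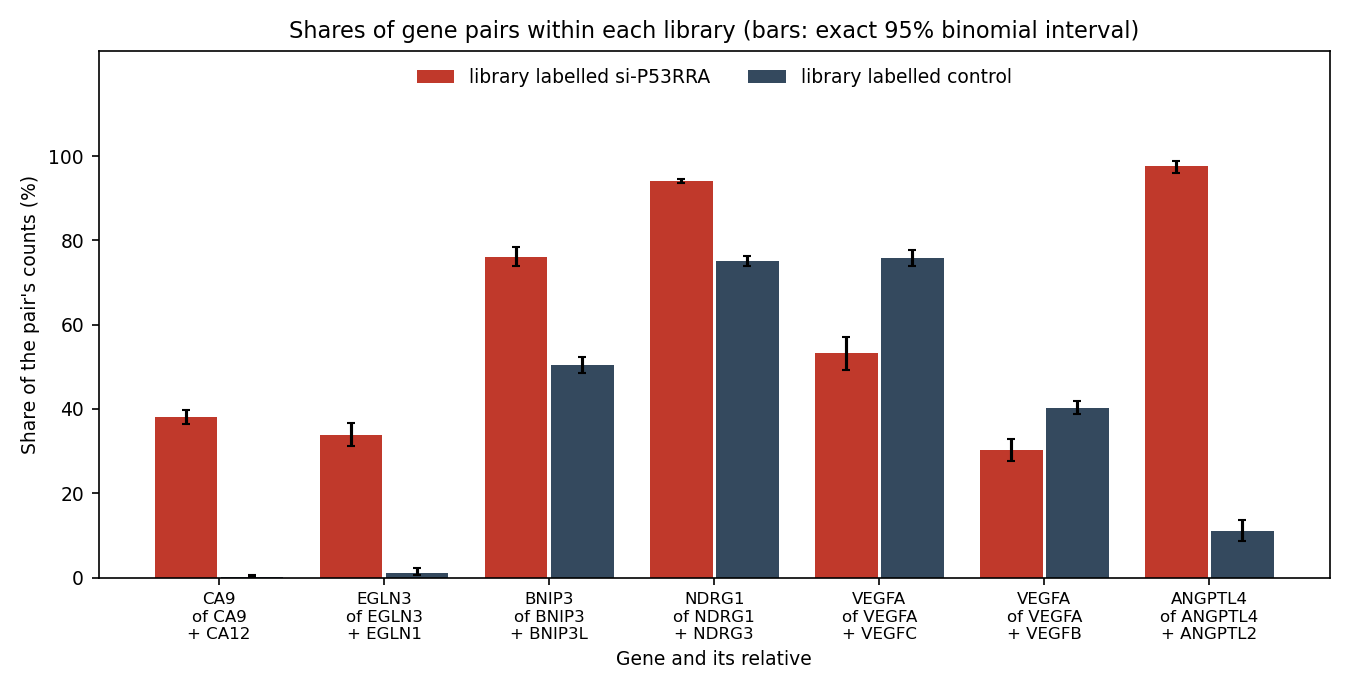
Share of the counts of a gene pair that belonged to the first gene (y axis, percent) in the library labelled si-P53RRA (red, left) and the library labelled control (blue, right) for 7 pairs along the x axis, with exact 95% binomial intervals. *CA9*, *EGLN3*, *ANGPTL4*, *BNIP3* and *NDRG1* hold larger shares in the si-P53RRA library, and *VEGFA* holds smaller shares beside *VEGFC* and *VEGFB*.

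*NDRG1*, a stress-responsive gene of growth arrest and differentiation that androgen also induces in prostate cells, had the most counts of the 10 genes. It had 9632 counts (9441 to 9826) in the si-P53RRA library and 3319 counts (3207 to 3434) in the control library, or 844 CPM in the si-P53RRA library and 198 CPM in the control library. It was 4.27-fold higher (4.10 to 4.44), with a log2 change of 2.09. Its relative *NDRG3* had a log2 change of −0.28 and *NDRG4* was 3.51-fold higher (2.39 to 5.24). *NDRG2*, at 0 counts in the si-P53RRA library against 32 in the control library, was at least 5.56-fold lower. *NDRG1* took 94.0% (93.5 to 94.5) of the counts of *NDRG1* and *NDRG3* in the si-P53RRA library and 75.1% (73.8 to 76.4) in the control library.

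*BNIP3*, which marks mitochondria for autophagy, was the gene that differed least. It had 1084 counts (95.0 CPM) in the si-P53RRA library and 1490 counts (88.8 CPM) in the control library, a ratio of 1.07 (0.989 to 1.16) whose interval includes no difference. Its log2 change was 0.10, or −0.03 when the libraries were scaled on total counts, so it has no fixed direction. *BNIP3* also has many processed pseudogenes that can share its reads. Its relative *BNIP3L*, another HIF target, was 2.94-fold lower (2.61 to 3.32), at 29.7 CPM in the si-P53RRA library against 87.3 CPM in the control library, and *BNIP3* took 76.2% (73.9 to 78.4) of the counts of the pair in the si-P53RRA library and 50.4% (48.6 to 52.2) in the control library. Of 8 mitophagy receptors, 1 (12.5%) was at least 2-fold higher and 2 (25%) were lower, beside 19.7% and 23.2% of all measured genes. *FKBP8* had a log2 change of 1.26, and *OPTN*, with *BNIP3L*, was lower, by 12.1-fold (9.51 to 15.7).

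*ANKRD37*, a small ankyrin-repeat gene used in hypoxia signatures, had the fewest counts of the 10 genes in the si-P53RRA library, 40 (28.6 to 54.5), and 19 counts (11.4 to 29.7) in the control library. It was 3.10-fold higher (1.75 to 5.66) and its log2 change was 1.30, which was 0.73 with a pseudocount of 2.5 CPM and so under 2-fold. Its exons overlap those of *UFSP2* on the opposite strand, which had 108 and 310 counts in the si-P53RRA and control libraries.

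Levels of different genes were compared per kilobase of the longest annotated transcript. In the si-P53RRA library the order was *NDRG1* (212 CPM per kb), *CA9* (61.2), *BNIP3* (31.0), *CA12* (25.1), *ANGPTL4* (24.0), *EGLN3* (12.4), *ADM* (10.8), *EGLN1* (9.70) and *ANKRD37* (2.43). In the control library the order was *ADM* (52.0 CPM per kb), *NDRG1* (49.7), *BNIP3* (28.96), *CA12* (12.7), *EGLN1* (6.44), *ANGPTL4* (2.35), *ANKRD37* (0.784), *EGLN3* (0.188) and *CA9* (0.110). *CA9* thus stood second of these 9 genes in the si-P53RRA library and last in the control library. The counting intervals of *CA12* and *ANGPTL4*, of *EGLN3* and *ADM*, and of *ADM* and *EGLN1* overlapped in the si-P53RRA library, as did those of *ADM* and *NDRG1* and of *EGLN3* and *CA9* in the control library. *VEGFA* is left out of the order because its longest annotated transcript of 12167 bases is 10.1 times its longest principal one. For the other 9 genes that ratio was at most 1.27.

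Other hypoxia-responsive genes outside glycolysis also went both ways. Of 42 measured genes in a list of 45, 14 (33.3%) were higher by 2-fold or more and 9 (21.4%) were lower. Over all measured genes these shares were 19.7% and 23.2%, so the share that was lower was near that of all genes. The median log2 change of the 42 was 0.31. *TGFA*, a ligand of the EGF receptor, had 370 counts in the si-P53RRA library and 0 in the control library, at least 147-fold higher. The chemokine receptor *CXCR4* had 70 counts in the si-P53RRA library against 0 in the control library, at least 27.2-fold higher. The ephrin ligands *EFNA1* and *EFNA3* were 14.6-fold (10.7 to 20.5) and 10.9-fold (7.65 to 15.9) higher. Among those that were lower were the collagen cross-linking oxidase *LOX*, 56.5-fold (40.7 to 80.8), and the hormone *STC1*, 100-fold (42.9 to 310). *PPP1R3C*, a glycogen-targeting subunit, was at 0 counts in the si-P53RRA library against 393 in the control library, at least 72.1-fold lower. *LOX* is also a gene of matrix-producing cells, and the 11 of 12 fibroblast markers that were lower stand beside it; the part of such cells was not tested. Of 20 glycolytic targets, 7 were higher and 1 lower, with *PGK1* 8.81-fold (8.64 to 8.99) and *HK2* 5.55-fold (5.12 to 6.02) higher, *SLC2A1* at a log2 change of 0.26 and the glucose transporter *SLC2A3* at least 303-fold lower, at 0 counts in the si-P53RRA library against 1335 in the control library.

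**Figure D4:**
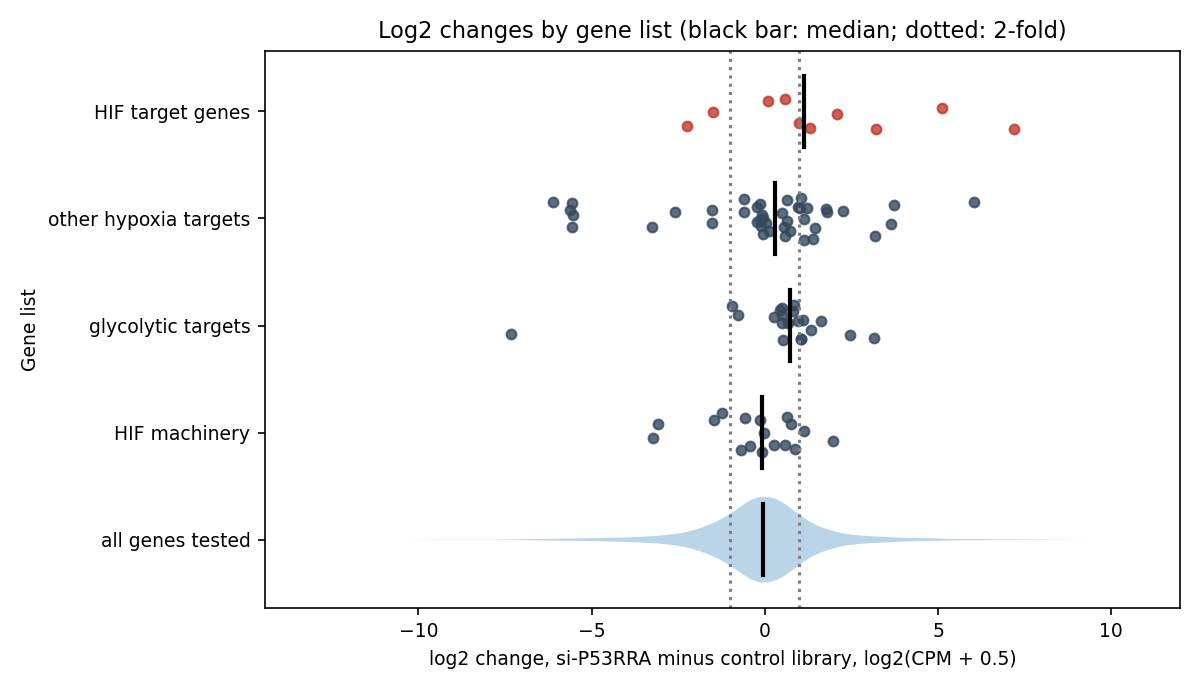
Log2 change, si-P53RRA minus control library, of each measured gene (points, x axis) in 4 gene lists (y axis), with the distribution over all 13532 measured genes at the bottom, medians as black bars and 2-fold differences as dotted lines. The 10 HIF target genes range from −2.25 to 7.20 with a median of 1.14, and the HIF machinery and all measured genes have medians of −0.09 and −0.06.

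By distance over the 2 libraries on the log2(CPM + 0.5) scale, the 3 genes nearest to *CA9* were *FCHO1*, *SELENBP1* and *TRIM58*, at 0.05, 0.06 and 0.14. Those nearest to *EGLN3* were *TSPAN1*, *PCDH1* and *TIAM1*, at 0.10, 0.11 and 0.16. With 2 libraries, such a likeness says only that a gene has the same level in each.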

How the data were processed

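RNA was sequenced from 2 libraries, 1 per group. The authors deposited raw whole-number counts per gene symbol, to go by their values and unequal totals. Reads were mapped to hg19, per the submitters' processing notes. The aligner, counter, annotation and strandedness were not given in the sources used here. Beside the genes named above, exons of *VEGFA*, *BNIP3L*, *HIF1A*, *HIF1AN* and *SLC2A1* overlap those of a gene on the opposite strand. Exons of *PGK1* overlap those of *ATP7A* on the same strand. How reads in such overlaps were counted is not known. The si-P53RRA column carries the title of its sample; the other column was taken as the control.

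Counts were scaled to CPM by TMM (trimmed mean of M-values; edgeR 4.0.16, R 4.3.3; factors 0.955 for si-P53RRA and 1.05 for control). Genes with 1 CPM in either library were measured, and a difference of at least 2-fold on log2(CPM + 0.5) was tallied. Count intervals are exact Poisson, shares exact binomial and folds exact conditional binomial, all 95%; folds are CPM ratios without pseudocount. Where a library was at 0, the fold given after the words at least is the limit of the fold interval nearer to no difference. The libraries carried no stated molecular identifiers, so reads may repeat a molecule and the intervals cover counting error only. Only some of the steps were tried on simulated counts. The TMM scaling, the list tallies, the pair shares and the promoter search were not tested in that way.

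The 10 genes, the lists and the naming rule were chosen with earlier results of these data known. All 10 were named, with up to 4 genes in each direction of the machinery and other-target lists and up to 2 of the other lists, by size of change; 1 gene under this rule is not reported here. Scalings by total counts, upper quartile and median ratios (DESeq2 1.42.0), other filters, pseudocounts, sizes of change, the interval and a cubic surface in GC content and length of the longest GENCODE 29 transcript were tried as alternatives. The last had values for 94.6% of measured genes. Promoter sequences are from RefSeq, GRCh38.p14, a newer build than that of the counts.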

Additional observations from a re-analysis of the deposited data

How the results depend on the processing

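Of 70 values of the 7 tallies under 10 alternatives, 65 stayed within 1.5 times the values reported, and the other 5 came from asking for 4-fold in place of 2-fold. At 4-fold, 1129 of all measured genes were higher and 1400 lower, 1 of the 10 genes was lower (*ADM*), 2 HIF machinery genes were apart and 5 other hypoxia targets were higher; the larger size by its construction keeps fewer genes. *CA9*, *EGLN3*, *ANGPTL4* and *NDRG1* counted as higher and *ADM* as lower under every alternative run; *VEGFA* counted as lower under all but the 4-fold size. *ANKRD37* did not count as higher at 4-fold, with a filter of 5 CPM or with a pseudocount of 2.5 CPM. *CA12* counted as higher only after the surface correction. Among the other genes named from the lists, that correction took *SIAH2*, *BSG* and *FKBP8* under 2-fold, at log2 changes of 0.91, 0.72 and 0.46, and *VEGFB* past it, at −1.80. Over the scalings, pseudocounts and surface, the log2 change ranged from 5.24 to 8.47 for *CA9* and from 3.64 to 5.80 for *EGLN3*, the genes with the fewest counts in the control library. Total-count scaling lowered the median of all measured genes to −0.18, beside −0.06, and took *BNIP3* to −0.03. No paired analysis was possible because each group had 1 library, and for the same reason no library could be left out. Depth limits *CA9*, *EGLN3* and *ANKRD37*, which had 3, 9 and 19 counts in the control library.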

Other observations

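The genes next to each of the 10 on its chromosome were looked up after the data were seen, as the 2 nearest measured genes on either side in GENCODE 29. Of the 40 neighbours, 12 were at least 2-fold higher in the si-P53RRA library and 9 lower, beside 19.7% higher and 23.2% lower over all measured genes. The neighbours of *NDRG1* on chromosome 8 had the highest median log2 change, 3.85, above the 2.09 of *NDRG1* itself. The thyroglobulin gene *TG* had 816 counts in the si-P53RRA library and 0 in the control library, and the sialyltransferase gene *ST3GAL1* had 6067 in the si-P53RRA library and 266 in the control library. The secreted factor gene *WISP1* had 35 counts in the si-P53RRA library and 1 in the control library. *ZFAT* had 163 in the si-P53RRA library and 203 in the control library, a CPM ratio of 1.18 (0.955 to 1.46). The neighbours of *CA9* had a median of −0.82, with the tropomyosin gene *TPM2* at 65 counts in the si-P53RRA library against 12424 in the control library and *TLN1*, which encodes talin, at 3723 in the si-P53RRA library against 15965 in the control library. On the other side of *CA9*, *ARHGEF39* was 1.39-fold higher (1.10 to 1.76) and *CCDC107* had 122 counts in the si-P53RRA library and 193 in the control library, a ratio of 0.930 (0.735 to 1.17). The neighbours of *EGLN3* had a median of 1.00 and those of *VEGFA* and *ADM* medians of 0.33 and −0.06.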
